A study of Arabidopsis thaliana with 18 samples.

Results

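The 2 seedling libraries of tt1 mutants, tt1-4 and tt1-5, were set against 6 libraries of mutants in flavonoid enzymes, ban-6, ban-7, tt3-3, tt3-4, tt5-3 and tt5-4. These are 8 of the 18 libraries of the series, chosen by their titles alone, and the wild type Col-0 was not used in the comparison. All were Arabidopsis thaliana seedlings shaken for 4 days in 3% sucrose with 24 h of light, a treatment the labels name AIC. Every line carried 1 named allele of 1 locus: TT1, a zinc finger gene, in the tt1 lines, and anthocyanidin reductase (BAN), dihydroflavonol reductase (TT3, DFR) or chalcone isomerase (TT5, CHI) in the enzyme lines. The line names begin with SALK or SAIL, the names of public insertion collections. Both tt1 lines, ban-6 and tt5-4 were SALK lines, and ban-7, tt3-3, tt3-4 and tt5-3 were SAIL lines. Each allele had 1 library, so an allele and its library cannot be told apart, and the 2 alleles of tt1 served as the samples of tt1. The control group thus consisted of lines labelled as mutants of flavonoid enzymes and was no wild type. Nothing in the labels says that lines were grown as separate cultures in parallel, so the p-values measure the spread between these samples alone.

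Flavonoids are made by a chain of enzymes that opens with chalcone synthase and chalcone isomerase, branches to flavonols, and runs on through DFR and leucoanthocyanidin dioxygenase to anthocyanins. In the seed coat BAN diverts the chain to proanthocyanidins, the tannins that brown the seed, and transparent testa (tt) mutants are known for pale seeds. TT1 belongs to the WIP family of zinc finger proteins and is known for its part in the inner layer of the seed coat. Seed storage proteins (12S cruciferins, encoded by CRA1, CRU2 and CRU3, and 2S albumins, encoded by the SESA genes) are made in the maturing embryo, and their transcripts normally disappear as a seedling establishes. Oleosins coat the oil bodies of the same embryo cells. The RY element, with the core CATGCA, is bound by the B3-domain regulators of seed maturation, and the G-box CACGTG by bZIP proteins that act in the response to abscisic acid.

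The storage protein genes gave the largest list difference between the tt1 and the enzyme libraries, and 3 of their upstream regions are shown because they hold 1 or both of these elements. Each is the 250 bases before the annotated gene start in TAIR10.1, read 5′ to 3′ on the strand of the gene. Capitals mark CATGCA on either strand (TGCATG in reverse) and CACGTG, which reads the same on both strands; CATGCATG is 2 overlapping matches.
SESA5, chr5:22239188-22239437, minus strand: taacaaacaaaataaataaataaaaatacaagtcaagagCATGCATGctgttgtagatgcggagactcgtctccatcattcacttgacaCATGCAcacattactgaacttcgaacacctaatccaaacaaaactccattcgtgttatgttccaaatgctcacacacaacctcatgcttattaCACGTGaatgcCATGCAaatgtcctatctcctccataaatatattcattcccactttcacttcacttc
CRU3, chr4:14087306-14087555, plus strand: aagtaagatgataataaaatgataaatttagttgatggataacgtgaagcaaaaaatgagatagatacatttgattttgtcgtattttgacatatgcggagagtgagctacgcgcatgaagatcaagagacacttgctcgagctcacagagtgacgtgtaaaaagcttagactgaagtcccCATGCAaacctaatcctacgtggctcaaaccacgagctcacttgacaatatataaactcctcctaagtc
AT1G03890, chr1:988948-989197, plus strand: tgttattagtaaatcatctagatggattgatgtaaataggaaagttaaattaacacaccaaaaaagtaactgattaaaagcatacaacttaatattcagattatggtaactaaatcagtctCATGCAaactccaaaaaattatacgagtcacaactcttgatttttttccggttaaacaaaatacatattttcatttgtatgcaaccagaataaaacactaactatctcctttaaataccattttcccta
SESA5 held 4 matches to CATGCA and 1 to CACGTG, and CRU3 and AT1G03890 held 1 match to CATGCA each and none to CACGTG. Of the 10 storage protein genes 9 held CATGCA and 5 held CACGTG in this window, and of the 9 oil body genes 9 and 2 did. The storage protein gene that held neither was CRU2. Of 21 late embryogenesis abundant and abscisic acid responsive genes 2 held CATGCA and 8 held CACGTG. Over all 27443 protein-coding genes the shares were 8.43% for CATGCA and 6.49% for CACGTG. Both elements stood together in 5 of the 10 storage protein windows and in 0.678% of all. Of 11 late anthocyanin genes 0 held CATGCA and 3 held CACGTG, and of 9 early flavonoid genes 0 and 3 did. A match is a string of letters and not a shown binding site.

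Levels are given as CPM, the count of a gene per 1000000 counted reads of its library after TMM scaling, and differences between groups as log2 differences, tt1 minus enzyme. Total counts ran from 13076113 in tt1-5 to 27145377 in tt3-4, so that 3 counts correspond to 0.111 to 0.229 CPM before scaling. Libraries differed widely within the enzyme group. Among genes whose 2 counts summed to 20 or more, the chi-square per degree of freedom between 2 enzyme libraries ran from 10.8 to 158. The lowest value joined ban-6 with tt5-4, lines of different loci. Over all pairs of the 8 libraries the highest was 167, for tt1-4 with tt5-4. Same-locus pairs gave 71.9 for tt1, 143 for ban, 32 for tt3 and 117 for tt5. Both tt1 libraries were nearer to tt5-3 (67.3 for tt1-4 and 54.9 for tt1-5) than to each other. The first principal component of log2 CPM held 57.9% of the variance and put the SALK enzyme lines at one end (ban-6 at -98.7, tt5-4 at -78.5) and the SAIL lines at 4.49 to 85.1, with tt1-4 at 39.9 and tt1-5 at -23.6. The second held 15.4%, with tt1-4 at 40.6 and tt1-5 at 58.9 against at most 2.38 in the enzyme lines. Photosynthesis genes, which mark green cotyledon and leaf cells, were near absent in every library: the 38 members together reached 278 and 325 CPM in tt1-4 and tt1-5 and 188 to 594 CPM in the enzyme libraries.

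TT1 itself had 0 counts in all 8 libraries, so its transcript could not check the tt1 labels. BAN had at most 1 count per library. In tt5-3 and tt5-4 CHI had 4.19 and 4.66 CPM, compared with 33.7 to 58 CPM in the other enzyme libraries and 70.9 and 81 CPM in tt1-4 and tt1-5, whereas DFR was at 203 and 275 CPM in tt3-3 and tt3-4 against 46.9 to 256 CPM in the other 6 libraries. The nearest counted gene on one side of TT1, AT1G34844, had 5.9 and 8.42 CPM in tt1-4 and tt1-5 against 4.87 to 7.94 CPM, and the next, APRL4, had 25.6 and 21.6 CPM against 19.1 to 28.3 CPM. On the other side AT1G34792 and AT1G06797 had 0 counts throughout.

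No gene passed the threshold between tt1 and the enzyme mutants at an adjusted p of 0.05 (edgeR quasi-likelihood test, 20399 genes tested, 0% called). The smallest adjusted p was 0.152. The log2 difference was above 0 at 9106 of the 20399 genes and below 0 at 11293. At an unadjusted p under 0.05 there were 1674 genes (8.21%), of which 766 were higher (3.76%) and 908 lower (4.45%) in tt1. Both tt1 libraries lay above all 6 enzyme libraries at 1113 genes (5.46%) and below all 6 at 1246 (6.11%). Of the former 498 (44.7%) and of the latter 340 (27.3%) also lay outside the 8 libraries of tt8 and ttg1 mutants. Of the other fits 3 made calls. A term for the insertion collection gave 652 genes (3.2%; 399 higher and 253 lower), the first principal component as a covariate gave 256 (1.25%; 123 higher, 0.603%, and 133 lower, 0.652%), and DESeq2 in place of edgeR gave 268 (1.26%; 102 higher and 166 lower). All 3 fits shared 80 genes, 33 higher and 47 lower. Among the 4 SALK lines alone no gene was called, with 4222 at an unadjusted p under 0.05.

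Among the genes whose groups did not overlap, those with the smallest unadjusted p on the higher side held both genes of the stay-green pair. NYE1 (STAY-GREEN 1), whose product starts the breakdown of chlorophyll, had 105 CPM in tt1-4 and 137 CPM in tt1-5, against a lowest of 51, a median of 59.5 and a highest of 69.9 CPM in the enzyme libraries. Its log2 difference was 1.01 ± 0.14 (SE), with an edgeR adjusted p of 0.152. AT4G11910 (STAY-GREEN 2) had 39.3 and 44.2 CPM against 12.3 to 21.4 CPM, a log2 difference of 1.28 ± 0.19 with an edgeR adjusted p of 0.189. Neither allele overlapped the enzyme range at either gene, which is how the genes were chosen. AtLEA4-1, a late embryogenesis abundant protein gene, had 296 and 307 CPM against 95.6 to 162 CPM. CLS, which encodes the cardiolipin synthase of mitochondria, had 66.4 and 58.2 CPM against 28.5 to 38.7 CPM. HIPP27, a heavy metal associated isoprenylated protein gene, had 29.4 and 26 CPM against 7.78 to 14 CPM. AT4G27530, a gene with no described product in the annotation used, had the largest difference of the 8 (52.3 and 42.4 CPM against 7.78 to 17.2 CPM, log2 difference 1.90 ± 0.26). AT1G01715 and AT1G11170 completed the set, at 23.9 and 24.4 CPM against 12.7 to 15.6 CPM and at 32.7 and 28.5 CPM against 13.7 to 19.8 CPM.

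On the lower side stood MC9, a metacaspase known from the clearing of dying xylem cells. It had 3.5 CPM in tt1-4 and 2.03 CPM in tt1-5 against a lowest of 12.8, a median of 15.4 and a highest of 24.1 CPM, a log2 difference of -2.57 ± 0.35 with an edgeR adjusted p of 0.152. VSR7, a receptor that sorts proteins to the vacuole, had 24.6 and 22.2 CPM against 45.9 to 64.2 CPM. CYP71B29, a cytochrome P450, had 1.83 and 1.8 CPM against 6.51 to 9.54 CPM. UGT73D1, a glycosyltransferase, had 0.365 and 0.301 CPM against 1.69 to 2.5 CPM, and CEN2, a centrin, had 7.15 and 8.49 CPM against 14.9 to 21.1 CPM. Both tt1 libraries lay outside the enzyme range at these genes, which is how the genes were chosen. UGT73D1 rests on 7 counts in tt1-4 and 4 counts in tt1-5. AT4G35380 had 9.29 and 6.91 CPM against 23.8 to 33.3 CPM, a log2 difference of -1.68 ± 0.19. AT1G52200 had 17 and 18.6 CPM against 31.8 to 43.6 CPM, and AT5G18490 had 18.4 and 17.7 CPM against 28.5 to 32.7 CPM. All 16 of these genes were called under DESeq2, under the collection term and under the principal component covariate. Chosen by edgeR p in the same 8 libraries, the 16 genes gain no independent support from these calls. Among the SALK lines alone their log2 differences were 0.78 to 2.31 for the 8 higher genes and -2.89 to -0.75 for the 8 lower ones. In the tt8 and ttg1 libraries several of them reached the tt1 level: both tt1 libraries also stood outside all 8 of those at 3 of the higher and 4 of the lower genes.

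**Figure D1:**
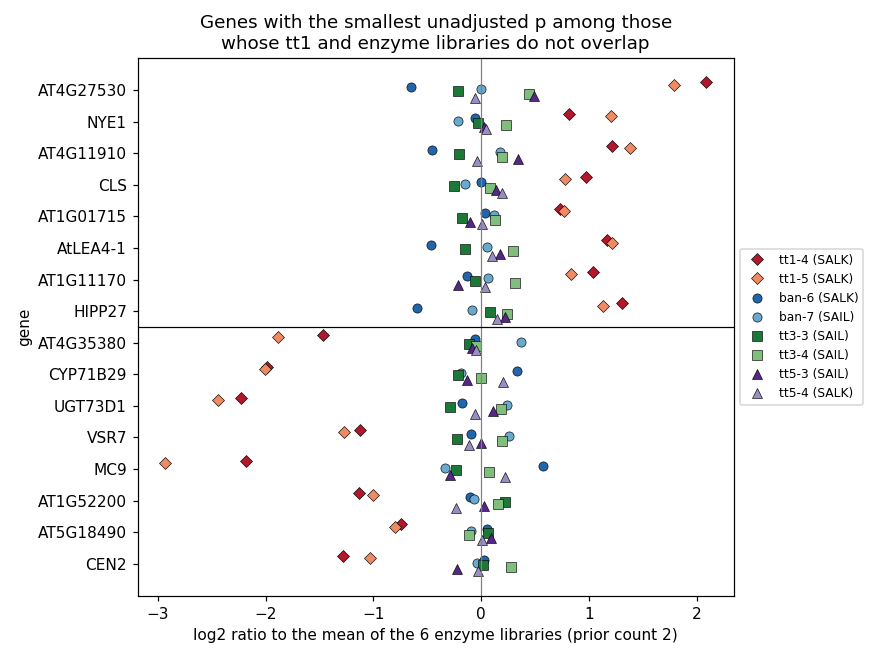
Log2 ratio of each library to the mean of the 6 enzyme libraries (horizontal axis) for the 8 higher and 8 lower genes (rows), each point 1 library. Both tt1 libraries lie beyond all 6 enzyme libraries at every gene drawn, which is how the genes were chosen; at MC9 tt1-4 had 3.5 CPM and tt1-5 had 2.03 CPM against at least 12.8 CPM.

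Transcripts of seed storage proteins were more abundant in the tt1 libraries, far more so in tt1-4 than in tt1-5. All 10 genes of the list were tested. Both tt1 libraries lay above all 6 enzyme libraries at 8 of the 10 (5.46% of all genes), 9 had an unadjusted p under 0.05 (3.76% of all genes on this side), and none was called by edgeR. DESeq2 called 3 higher (0.478% of all genes) and gave no adjusted p for 6, and the principal component covariate gave 2 calls (0.603%). The median log2 difference was 4.02, against -0.04 over all genes tested. By library the median log2 ratio to the enzyme mean was 5.33 in tt1-4, 3.46 in tt1-5, 2.53 in tt5-3 and -2.51 in ban-6. The summed level of the 10 genes was 23979 CPM in tt1-4 and 5702 CPM in tt1-5, and it ran from 282 CPM in ban-6 to 5792 CPM in tt5-3 among the enzyme libraries and from 631 to 3994 CPM in the 8 libraries of tt8 and ttg1. The sum in tt1-5 was thus below that of tt5-3, and the sum in tt1-4 was above all 15 other mutant libraries. In whole seedlings fewer cells of a type and less RNA per cell cannot be told apart.

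Among the cruciferins, CRU2 had 243 CPM in tt1-4 and 75.3 CPM in tt1-5, against 0.802, 6.03, 6.26, 10.4, 18.7 and 10.6 CPM in ban-6, ban-7, tt3-3, tt3-4, tt5-3 and tt5-4. The groups did not overlap, and the log2 difference was 4.16 ± 0.75 (SE) with an edgeR adjusted p of 0.212. Its neighbour AT1G03890, listed with the cruciferins, had 96.8 and 29.1 CPM against 0.16 to 5.84 CPM, with a log2 difference of 4.32 ± 0.75 and an edgeR adjusted p of 0.198. These were the clearest storage genes, and the 8 other mutant libraries stayed at or below 22.9 and 5.88 CPM. CRA1 had 6420 and 1130 CPM, but tt5-3 had 1310 CPM, so tt1-5 lay inside the enzyme range of 26.9 to 1310 CPM. CRU3 had 5980 and 1090 CPM against 18.5 to 500 CPM. PAP85, a vicilin-like storage protein gene, separated the groups least, with 4460 and 2600 CPM against 224 to 3610 CPM.

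Among the 2S albumins the alleles parted most at SESA5, with 5520 CPM in tt1-4, 249 CPM in tt1-5, and 6.81, 46.7, 18.9, 27.3, 223 and 26.1 CPM in ban-6, ban-7, tt3-3, tt3-4, tt5-3 and tt5-4. Here tt1-5 lay just above tt5-3. The log2 difference was 5.63 ± 1.29 (edgeR adjusted p = 0.318). SESA1 was near equal in the alleles, with 244 and 190 CPM against 1.68 to 50.1 CPM. SESA2 had 215 and 73.4 CPM against 1.12 to 23.2 CPM, SESA3 had 643 and 219 CPM against 1.36 to 103 CPM, and SESA4 had 165 and 53.9 CPM against 0.16 to 30.7 CPM. SESA1 to SESA4 are closely similar neighbours, and how reads that match several of them were counted is not given in the sources used here, so their separate values are uncertain. Without tt1-4 the median of the list was 2.76, and without tt1-5 it was 4.52. Within the SALK lines it was 5.30, and with the collection term it was 5.25 with 2 of 10 genes called higher (1.96% of all genes).

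**Figure D2:**
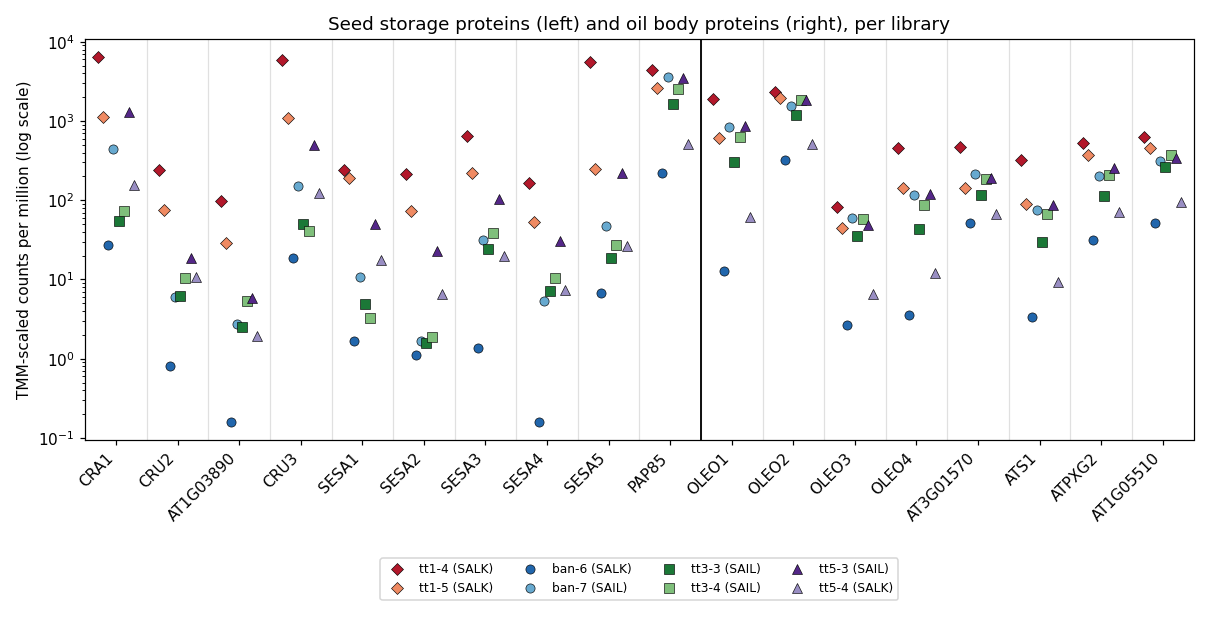
Level of each seed storage gene (left of the black line) and oil body gene (right) in the 8 libraries, in TMM-scaled CPM on a log axis, each point 1 library. The tt1-4 library is the highest at each gene drawn; tt1-5 lies above the enzyme libraries at 8 storage and 5 oil body genes, and ban-6 is the lowest at each gene drawn.

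Oil body genes were also higher, with a wide spread among the enzyme lines. All 8 tested members were above 0, with a median log2 difference of 1.32, and both tt1 libraries lay above all enzyme libraries at 5 (5.46% of all genes), but a single one had an unadjusted p under 0.05 (3.76%), and none was called by edgeR. OLEO1, the main seed oleosin, had 1880 and 615 CPM in tt1-4 and tt1-5 against 12.8 CPM in ban-6, 61.3 CPM in tt5-4 and 307 to 872 CPM in the SAIL lines. Its log2 difference was 1.46 ± 1.17 over the 6 enzyme lines and 5.11 within the SALK lines. ATPXG2, a caleosin, had 526 and 376 CPM against 31.5 to 258 CPM. ATS1, another caleosin, had 322 and 90.9 CPM against 3.37 to 88.3 CPM, and OLEO4 had 459 and 141 CPM against 3.53 to 121 CPM. At both the tt1-5 library lay barely above the highest enzyme library. With the collection as a term 7 of 8 oil body genes were called higher (1.96% of all genes), and the list median moved from 1.32 to 3.45. Since both tt1 lines are SALK lines, that fit compares them with ban-6 and tt5-4, the 2 libraries lowest in these transcripts. With the mean level of storage and oil body transcripts as a covariate the oil body median turned to -1.08. The oil body sum was 6726 CPM in tt1-4 and 3844 CPM in tt1-5 against 484 to 3777 CPM. In the tt8 and ttg1 libraries the sum ran from 408 to 4661 CPM, so tt1-5 lay inside that range.

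Of the regulators of seed maturation, 2 stood clearly above the enzyme range in both alleles, at low levels. HSFA9, a heat shock factor of maturing seeds, had 7.15 CPM in tt1-4 and 5.79 CPM in tt1-5 against a lowest of 0.321, a median of 0.94 and a highest of 2.07 CPM, a log2 difference of 2.52 ± 0.53 with an edgeR adjusted p of 0.286. DOG1, a regulator of seed dormancy, had 2.3 and 1.58 CPM against 0.16 to 0.916 CPM. At both genes the alleles lay close together and outside the enzyme range. ABI3, a B3 regulator, had 217 CPM in tt1-4 but 104 CPM in tt1-5, inside the enzyme range of 25.8 to 126 CPM. FUS3, also a B3 regulator, had 6.58 and 2.78 CPM against 0.641 to 4.19 CPM, and ABI5, a bZIP factor, had 261 and 203 CPM against 150 to 196 CPM. LEC1 and LEC2 did not pass the filter on low counts and had at most 0.174 CPM. Of the 6 tested members 6 were above 0 and 3 had an unadjusted p under 0.05 (3.76% of all genes on this side); none was called by edgeR, and DESeq2 called 2 higher (0.478% of all genes).

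Late embryogenesis abundant (LEA) and abscisic acid responsive genes showed smaller differences. Of 21 tested genes 18 were above 0, 9 had both tt1 libraries above all enzyme libraries (5.46% of all genes), and 9 had an unadjusted p under 0.05 on the higher side (3.76%). None was called by edgeR. DESeq2 called 2 higher (0.478% of all genes), and the principal component covariate also called 2 higher (0.603%). The median log2 difference was 0.57, with 0.67 in tt1-4 and 0.72 in tt1-5. The list sum was 10591 and 9231 CPM against 5026 to 7530 CPM. In the tt8 and ttg1 libraries the sum ran from 3240 to 10102 CPM, so tt1-5 lay inside that range. ECP63, an embryonic LEA protein gene, had 429 and 261 CPM against a lowest of 69.6, a median of 128 and a highest of 180 CPM, a log2 difference of 1.46 ± 0.34 with an edgeR adjusted p of 0.318. AT3G15670 had 874 and 688 CPM against 191 to 460 CPM, and RAB28 had 44.7 and 37.7 CPM against 10.5 to 28 CPM. EM1, a LEA gene of the dry seed, differed little but tightly, with 1190 and 1180 CPM against 683 to 869 CPM (0.57 ± 0.16). In the tt8 and ttg1 libraries EM1 ran from 317 to 1390 CPM. Several genes of the list known from cold and drought did not separate. LTI78 had 323 and 444 CPM against 260 to 560 CPM, and NCED3, an abscisic acid synthesis gene, had 40.7 and 72.3 CPM against 21.2 to 146 CPM. The collection term called 8 of the 21 higher (1.96% of all genes).

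Early flavonoid genes were higher in tt1 at 7 of 8 tested members, with a median log2 difference of 0.92, but 3 had an unadjusted p under 0.05 (3.76% of all genes on this side) and none was called by edgeR. By library the median log2 ratio was 1.14 in tt1-4 but 0.685 in tt1-5, below tt5-3 at 0.755. The list sum was 1942 and 1334 CPM against 633 to 2124 CPM. In the tt8 and ttg1 libraries it ran from 206 to 2416 CPM. The collection term called 1 higher, UGT78D2 (1.96% of all genes). Chalcone synthase (CHS, listed as TT4) overlapped fully, with 1190 and 791 CPM against 391 to 1590 CPM. CHIL, which aids chalcone synthase, had 21.6 and 39 CPM against a lowest of 6.82, a median of 11.7 and a highest of 17.3 CPM, a log2 difference of 1.37 ± 0.38 with an edgeR adjusted p of 0.405. FLS1, flavonol synthase, had 79.7 and 63.4 CPM against 15.9 to 60 CPM, and UGT78D2, a flavonoid glucosyltransferase, had 57 and 57.5 CPM against 29.6 to 53.7 CPM. At these 3 genes and at CHI both alleles stood above the enzyme range (5.46% of all genes). F3H, flavanone hydroxylase, had 317 and 169 CPM against 59.9 to 284 CPM, and TT7, the flavonoid 3′-hydroxylase, had 183 and 104 CPM against 25.7 to 106 CPM, so that tt1-4 alone was outside. UGT78D1 had 24 and 29.4 CPM against 16.9 to 46.1 CPM. For CHI the tt5 lines are mutants of the gene itself: without them the log2 difference was 0.75 ± 0.28 (edgeR adjusted p = 0.649), against 1.25 ± 0.88 with them. 4CL3, the 4-coumarate ligase that feeds flavonoid synthesis, had 18.3 and 21.8 CPM against 6.73 to 12.4 CPM (0.98 ± 0.23).

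Late anthocyanin genes were higher at 10 of 11 tested members, with a median of 0.49. At 4 of them the unadjusted p was under 0.05 (3.76% of all genes on this side), and again none was called by edgeR. By library the median log2 ratio was 0.605 in tt1-4 and 0.611 in tt1-5, inside the enzyme range and just below tt3-4 at 0.616. The list sum was 605 and 647 CPM against 221 to 648 CPM. In the tt8 and ttg1 libraries it ran from 66.8 to 993 CPM. The tt1-5 library was the higher of the alleles at 7 of the 11. GSTF12 (TT19), which carries anthocyanins toward the vacuole, had 84.3 CPM in tt1-4 and 121 CPM in tt1-5 against a lowest of 30.7, a median of 55.3 and a highest of 81.7 CPM. In the tt8 and ttg1 libraries GSTF12 ran from 0.137 to 149 CPM. AT1G03940, an acyltransferase gene of the list, had 17.3 and 25.7 CPM against 8.1 to 16.3 CPM, with a log2 difference of 0.87 ± 0.25 and an edgeR adjusted p of 0.435. AT4G14090 had 44.5 and 49.5 CPM against 12.4 to 44.3 CPM, and AT1G03495 had 11.2 and 9.92 CPM against 4.65 to 9.41 CPM. GSTF12, AT1G03940, AT4G14090 and AT1G03495 were the 4 genes at which both alleles exceeded the enzyme range (5.46% of all genes). DFR had 256 and 210 CPM against 46.9 to 275 CPM, and LDOX (leucoanthocyanidin dioxygenase) had 82.1 and 78.2 CPM against 20.7 to 95.1 CPM. UF3GT had 35.1 and 53.5 CPM against 16.2 to 40 CPM, scpl10 had 15.1 and 24.4 CPM against 10.3 to 16.2 CPM, and AT5MAT had 26.4 and 30.1 CPM against 11.7 to 32.6 CPM. BGLU10 had 32.6 and 44.2 CPM against 33.1 to 59.7 CPM, and UGT78D3 stayed under 1 CPM in all 8 libraries. The collection term called 6 of 11 higher (1.96% of all genes) and moved the median to 1.26, and the seed transcript covariate turned it to -0.23, while ban-6 and tt5-4 had the lowest levels of DFR (46.9 and 89.9 CPM) and LDOX (20.7 and 34.5 CPM).

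Among the regulators of the pathway, PAP2 (listed as MYB90), a MYB activator of anthocyanin genes, had 31.1 CPM in tt1-4 and 51.9 CPM in tt1-5 against a lowest of 11, a median of 16.1 and a highest of 22.5 CPM. Its log2 difference was 1.31 ± 0.30 with an edgeR adjusted p of 0.318. It was called higher by DESeq2 (0.478% of all genes) and with the collection term (1.96%). With the principal component covariate it was not called (edgeR adjusted p = 0.0666). PAP1, its close relative, had 11.2 and 13.6 CPM against 3.92 to 10.7 CPM. In the tt8 and ttg1 libraries PAP2 ran from 15.6 to 39.6 CPM and PAP1 from 9.39 to 21.2 CPM. TT8, the bHLH partner, had 36.3 CPM in tt1-5 but 19.2 CPM in tt1-4, inside the enzyme range of 10.7 to 20.3 CPM, and the repressor MYBL2 had 18.9 and 8.61 CPM in these libraries against 5.87 to 11.6 CPM. TTG1, the WD40 partner, had 21.9 and 24.3 CPM against 23.5 to 29.8 CPM. MYB12, an activator of flavonol genes, had 24.7 and 14.4 CPM against 4.61 to 19.4 CPM. Over the 15 tested regulators 6 were above 0 and the median was -0.08, near that of all genes. TT2, the MYB regulator of BAN in the seed coat, had at most 1 count in a library of the comparison.

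**Figure D3:**
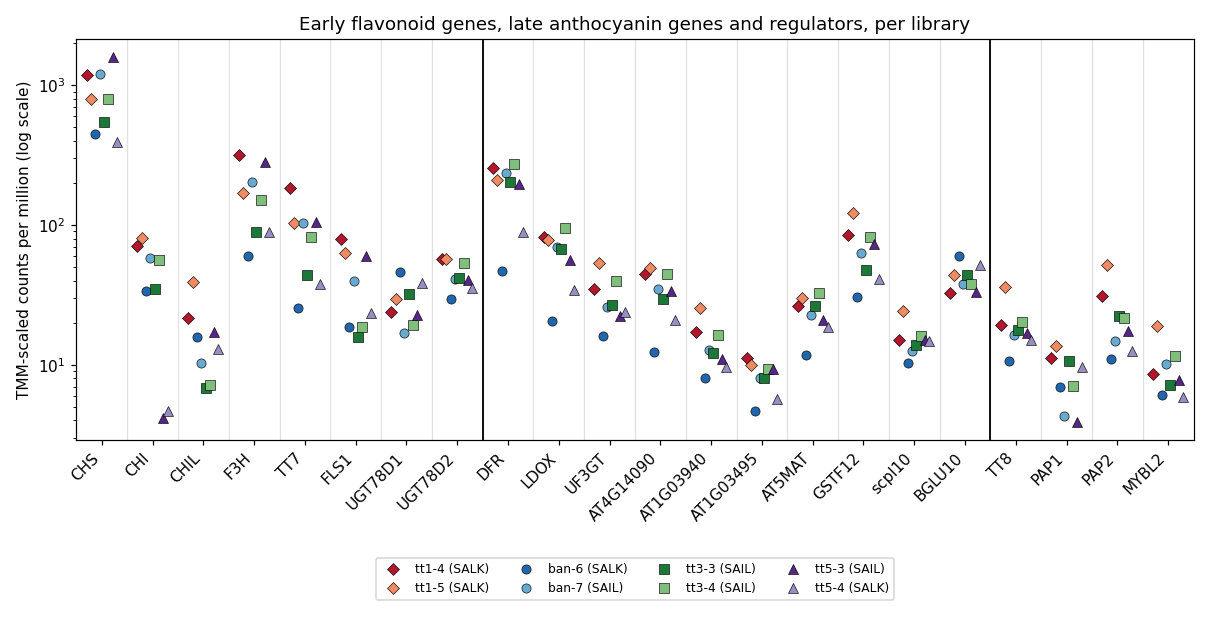
Level of early flavonoid genes (left), late anthocyanin genes (middle) and 4 regulators (right) in the 8 libraries, in TMM-scaled CPM on a log axis, each point 1 library; UGT78D3, under 1 CPM throughout, is not drawn. The tt5 lines stand apart at CHI (4.19 and 4.66 CPM), and both tt1 libraries stand above the enzyme libraries at CHIL and PAP2.

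The other genes of the WIP family showed no separation. NTT had 1.72 and 2.4 CPM in tt1-4 and tt1-5 against 1.6 to 4.49 CPM, and WIP3 had 6 and 7.97 CPM against 4.01 to 14.2 CPM. WIP4, WIP5 and DOT5 did not pass the filter and stayed at or below 0.251 CPM. Of 5 proanthocyanidin genes 3 were tested. They included TT10, a laccase of the seed coat, with 8.04 and 12.9 CPM against 8.11 to 21.1 CPM, and AHA10, a proton pump of the same cells, with 1.72 and 1.2 CPM against 1.48 to 2.31 CPM.

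Several lists had medians below 0, with no member called by edgeR, while 11293 of all 20399 genes tested were below 0. All 10 root hair genes were below 0, with a median of -1.50, mostly through tt1-5, which lay below all enzyme libraries at 7 of them (18.1% of all genes) while tt1-4 did so at 1 (15.7%). The list sum was 55 CPM in tt1-4 and 29.2 CPM in tt1-5 against 43.1 to 132 CPM. In the tt8 and ttg1 libraries the sum ran from 24 to 72.8 CPM, a range that held both tt1 values. RHD2, the NADPH oxidase of growing root hairs, had 11.3 CPM in tt1-4 and 4.81 CPM in tt1-5 against a lowest of 14.6, a median of 19.1 and a highest of 29.8 CPM (log2 difference -1.35 ± 0.40, edgeR adjusted p = 0.447). RSL4, the bHLH factor of root hair growth, had 0.574 and 0.15 CPM against 0.205 to 3.29 CPM. LRX1, a root hair wall protein gene, had 2.45 and 0.526 CPM against 1.54 to 13.3 CPM. The collection term called 2 root hair genes lower, EXPA7 and PRP3 (1.24% of all genes). Suberin genes, which mark the root endodermis, were below 0 at 11 of 12, with 4 at an unadjusted p under 0.05 on the lower side (4.45% of all genes). CYP86B1, a suberin fatty acid hydroxylase, had 15 and 13.9 CPM against 19 to 30.6 CPM (-0.80 ± 0.18). DESeq2 called CYP86B1 lower (0.779% of all genes), and RWP1 was called lower with the collection term and with the principal component covariate (0.652%). CYP86A1 had 44.8 and 35.7 CPM against 40.5 to 77.7 CPM. All 15 heat shock genes were below 0, with a median of -1.13, but none had an unadjusted p under 0.05, and the enzyme libraries themselves ran from -1.40 in ban-7 to 1.30 in tt3-3 in the list's median. Photosynthesis genes were below 0 at 28 of 33, with a median of -0.57 and 2 genes with an unadjusted p under 0.05, a share near the 4.45% of all genes. The medians of this list in tt1-4 and tt1-5, -0.31 and -0.23, lay inside the enzyme range of -1.08 in ban-7 to 0.87 in ban-6. With the seed transcript covariate this median turned to 0.72. LHCB5, a light-harvesting antenna gene, had 0.731 and 0.601 CPM against 1.7 to 4 CPM, and was called lower by DESeq2 (0.779% of all genes).

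Of the remaining lists few members set both tt1 libraries apart. ASN1, an asparagine synthetase known as a gene of sugar starvation, had 28.4 CPM in tt1-4 and 13.2 CPM in tt1-5 against 1.44 to 7.93 CPM (log2 difference 1.87 ± 0.52, edgeR adjusted p = 0.409). JAZ10, a jasmonate repressor, had 9.97 and 11 CPM against 1.86 to 8.61 CPM. AT3G10040 (HRA1), a gene known from low oxygen, had 338 and 305 CPM against 88.3 to 284 CPM. UGT72E1, a glucosyltransferase of phenylpropanoids, had 50.3 and 43.7 CPM against 57.2 to 127 CPM, and C4H, the cinnamate hydroxylase at the head of that pathway, had 1290 and 1220 CPM against 1380 to 2060 CPM. Neither tt1 library overlapped the enzyme range at these genes. PHT1;1, a phosphate transporter, had 4.91 and 1.35 CPM against 7.79 to 17.8 CPM (-1.94 ± 0.55), and ACX2, an enzyme of fatty acid breakdown, had 195 and 200 CPM against 222 to 336 CPM (-0.58 ± 0.19). ALPHA-VPE, a vacuolar processing enzyme, had 9.81 and 6.01 CPM against 10.9 to 33.4 CPM (log2 difference -1.55 ± 0.53). It was called lower with the principal component covariate (0.652% of all genes; edgeR adjusted p = 0.0177). With the collection term it was not called, and its log2 difference was -0.47. FTM1 and HB1, genes known from low oxygen, had 170 and 71.6 CPM against 156 to 413 CPM and 252 and 168 CPM against 226 to 619 CPM, and tt1-5 alone lay below the range at both. All 11 cell cycle genes were above 0 (9106 of all 20399 genes tested), with a median of 0.45, and none had an unadjusted p under 0.05.

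**Figure D4:**
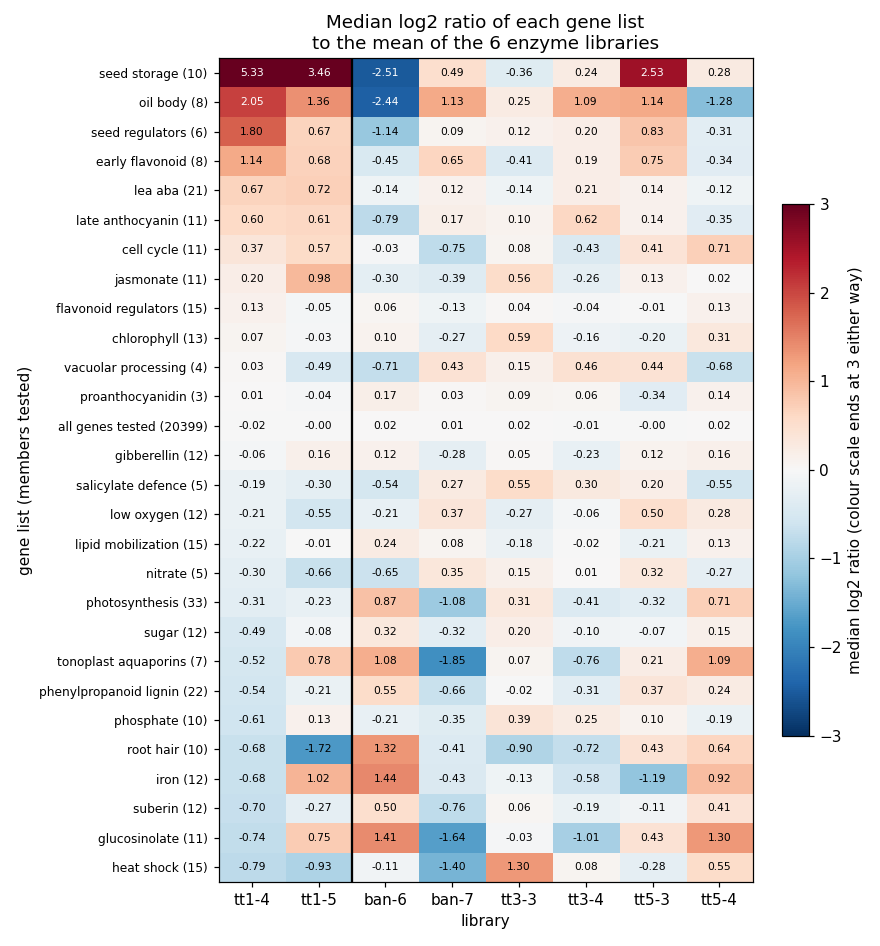
Median log2 ratio of each gene list (rows, with the number of members tested) in each library (columns) to the mean of the 6 enzyme libraries. Seed storage genes reach 5.33 in tt1-4 and 3.46 in tt1-5 but also 2.53 in tt5-3, and root hair genes reach -1.72 in tt1-5.

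The 2 alleles differed from each other at genes that the contrast of groups averages over. The tt1-4 library lay at least 4-fold from the enzyme mean at 252 genes and tt1-5 at 293. Among genes that reached 5 CPM in a library, at least 4-fold above each of the other 7 libraries stood 22 in tt1-4 and 3 in tt1-5, and 1 and 10 stood as far below; for comparison ban-6 and ban-7 had 35 and 47 below. In tt1-4 the first was SESA5. GRF8, a growth-regulating transcription factor, had 46.5 CPM in tt1-4, 2.86 CPM in tt1-5 and 2.73 to 7.95 CPM in the enzyme libraries. AT2G29300 had 46.6 and 4.13 CPM against 0.15 to 6.37 CPM, AT1G68240 had 14.9 and 0.601 CPM against 0.221 to 0.962 CPM, and AT1G75490 had 28.1 and 4.43 CPM against 0.24 to 3.85 CPM. The neighbours AT4G18680 and AT4G18690 had 11.1 and 23.5 CPM in tt1-4, 1.5 and 0.902 CPM in tt1-5 and at most 0.523 and 3.75 CPM in the enzyme libraries. None of the 8 tt8 and ttg1 libraries reached the tt1-4 level at any of these genes. Furthest below the other 7 libraries in tt1-4 was AT4G04990, with 0.104 CPM (2 counts) against 1.13 CPM in tt1-5 and 0.953 to 6.31 CPM. The low-sulphur genes lay less than 4-fold below: LSU3 had 3.6 CPM against 34.6 CPM in tt1-5 and 10.9 to 35 CPM, and LSU2 had 2.4 CPM against 11.6 CPM and 6.86 to 25.4 CPM. SWEET2, a sugar transporter gene, had 1.46 and 4.06 CPM against 4.25 to 6.57 CPM.

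Genes of bHLH factors that act in the response to low iron were low in tt1-4 and high in tt1-5, and among the enzyme lines high in ban-6 and tt5-4. BHLH100 had 8.35 CPM in tt1-4 and 162 CPM in tt1-5, against 83, 9.81, 11, 9.67, 5.28 and 54.8 CPM in ban-6, ban-7, tt3-3, tt3-4, tt5-3 and tt5-4. BHLH101, a bHLH factor of the same group, had 0.731 and 24.7 CPM against 16.9 and 8.47 CPM in ban-6 and tt5-4 and at most 1.59 CPM in the SAIL lines. AT1G47400 had 2.77 and 75 CPM, 36.9 and 31.9 CPM in ban-6 and tt5-4, and at most 5.85 CPM in the SAIL lines. At these genes 3 of the 4 SALK lines were thus high and tt1-4 was not. AT1G13609 had 5.79 and 178 CPM, with 57.9 and 34.3 CPM in ban-6 and tt5-4. The median of the iron list was -0.68 in tt1-4 and 1.02 in tt1-5. A further pair of genes was high in tt1-5 alone among the 8 libraries: SAG29 (SWEET15), a sugar transporter gene of senescing leaves and of seeds, had 83.3 CPM against 5.84 to 17.9 CPM in the other 7, and ELI3-1 had 87.1 CPM against 14 to 25.8 CPM. In the tt8 and ttg1 libraries they reached up to 236 and 79.3 CPM.

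A stretch of neighbouring genes on chromosome 1 had few or no counts in tt1-5 alone. AT1G55805 (BolA1) had 0 counts in tt1-5, 13.2 CPM in tt1-4, 10.3 to 14.5 CPM in the enzyme libraries and 12 to 14.2 CPM in the tt8 and ttg1 libraries. UKL3, uridine kinase-like 3, next to it (chromosome 1, 20860507 to 20864287, TAIR10.1), had 4 counts in tt1-5, or 0.301 CPM, against 31.2 CPM in tt1-4 and 24.5 to 43.7 CPM in the enzyme libraries. On the near side AT1G55800 and AT1G55803 also had 0 counts in tt1-5, from genes with 3 to 35 and 5 to 16 counts in the enzyme libraries and with ends that overlap their neighbours in the annotation. On the far side AT1G55820 had 5.56 CPM against 9.14 to 15.5 CPM. AT1G55830 (27 CPM against 22.7 to 29.7 CPM) and AT1G55840 (69.4 CPM against 63.3 to 77.6 CPM) were in range. Further out tt1-5 was again below the enzyme range, by less, at CSLE1 (211 CPM against 232 to 269 CPM). At CSLE1 tt1-4 was below it too, at 203 CPM. The tt1-5 library was also below at UPL1 (194 CPM against 224 to 407 CPM) and AT1G55865 (0.376 CPM against 0.401 to 0.828 CPM). Further out on the near side AT1G55775 had 1.2 CPM in tt1-5 (16 counts) against 2.65 to 12 CPM. UKL3 lies 8094821 bases from TT1. When tt1-4 was left out, AT1G55805 was the 1 gene called between tt1-5 and the enzyme libraries (edgeR adjusted p = 0.00761), a fit in which the lone tt1 library is assumed to vary like the enzyme libraries. Runs of at least 2 neighbouring tested genes, with 5 CPM or more in a library and each at least 4-fold below the other 7, numbered 1 in tt1-5, 0 in tt1-4, 4 in ban-6 and 2 in ban-7.

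**Figure D5:**
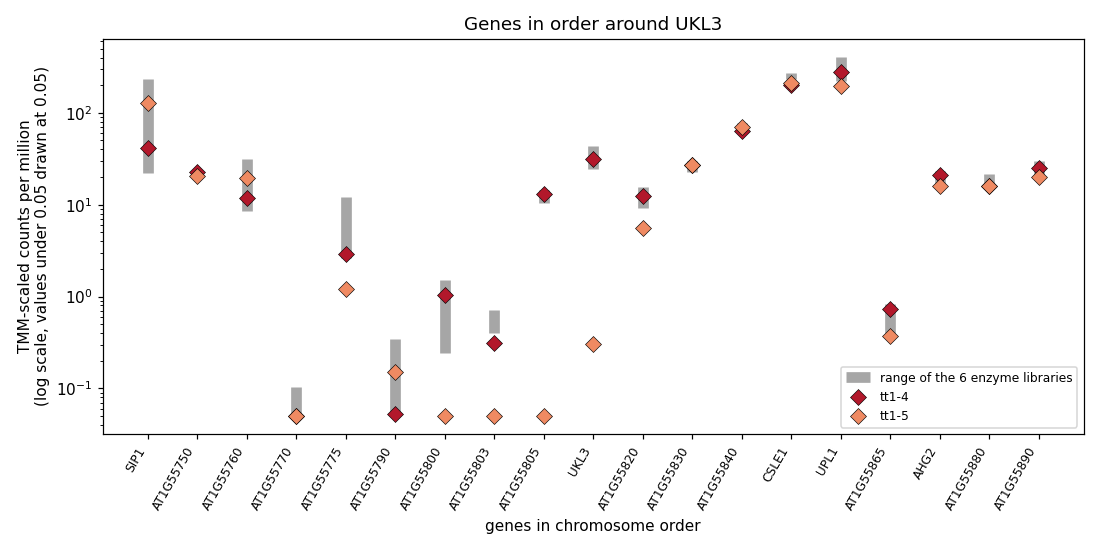
Level of the genes in chromosome order around UKL3 in TMM-scaled CPM on a log axis, with values under 0.05 drawn at 0.05; diamonds are the tt1 libraries and grey bars span the 6 enzyme libraries. From AT1G55800 to UKL3 tt1-5 lies below the bars while tt1-4 stays at or near them.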

How the data were processed

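The deposited files hold raw counts per gene, 1 file per library. HISAT2, an aligner, and the build TAIR10 are named, per the submitters' processing notes. The sources used here do not state the counting program, annotation or strand setting; per the labels' protocols the kit was stranded and per the series' design text reads were single-end of 50 bases. Reads of overlapping genes and close copies are therefore uncertain. The 1392 small RNA identifiers (0.00826% to 0.0131% of a library's counts) were left out of library sizes and tests. All 32547 locus identifiers matched TAIR10.1, which gave symbols, gene order and upstream sequence (RefSeq).

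The test of each gene was that of edgeR 4.0.16 (R 4.3.3): TMM scaling (factors 0.954 to 1.04), filterByExpr by class, robust quasi-likelihood F-test with 6 residual degrees of freedom, two-sided, Benjamini-Hochberg adjusted over the 20399 genes tested. An adjusted p with no other tool named comes from this test. Ratios per library are log2 CPM with a prior count of 2. Genes with no overlap have both tt1 libraries beyond all 6 enzyme libraries in scaled CPM. The scripts were tested on simulated data. Alternatives used DESeq2 1.42.0, RLE scaling, no filter on low counts, no robust estimation, 4 locus groups, all 16 mutant libraries, SALK lines alone, a collection term, a covariate of seed transcripts (mean log2 CPM of storage and oil body genes), each library or enzyme locus left out and, chosen after seeing the data, the first principal component as a covariate.

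The members and the 28 gene lists were chosen with earlier results of these data known, and no list is independent support. Genes are named by rule: the mutated loci and the neighbours of TT1; up to 8 genes each way with the smallest unadjusted p and no overlap; all tested early flavonoid, late anthocyanin and WIP genes; up to 4 of each other list by p; and, per allele, 6 genes each way with the largest fold from the other 7 libraries and 6 each way with the largest difference between the alleles (the higher at 20 CPM or more). Further list members were named after their values were seen. Floors of 3 counts cover counting error only.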

Additional observations from a re-analysis of the deposited data

Results flagged for a closer look

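Of 77 results examined over the 6 enzyme libraries, 2 held a library far from the others by Dixon's ratio (gap over range, at its 95% critical value), where chance flags about 1 group in 20. At AT4G35380 the ratio was 0.853, with ban-7 at 33.3 CPM above the other 5. At ELI3-1 (AT4G37980) it was 0.644, with tt5-3 at 14 CPM below the other 5.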

How the results depend on the processing

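No call was made by edgeR under RLE scaling, without the filter on low counts, without robust estimation, with 4 locus groups, with all 16 mutant libraries, within the SALK lines, with the seed transcript covariate or without any 1 enzyme locus, with smallest adjusted p values from 0.0867 to 0.736. DESeq2 gave 268 calls, the collection term 652, the principal component covariate, chosen after seeing the data, 256, and leaving out 1 library 0 to 1; the cause was not tested. Genes without overlap numbered 2568 to 6724 with 1 library left out, since a lone tt1 library overlaps less often by construction. At 2-fold, 136 genes stood apart in tt1-4 and 86 in tt1-5. Within the SALK lines and with the collection term the list medians were 1.51 and 1.47 (early flavonoid), 1.25 and 1.26 (late anthocyanin), 3.49 and 3.45 (oil body) and 0.83 and 0.79 (LEA and abscisic acid genes). With the seed transcript covariate they were 0.20, -0.23, -1.08 and 0.39, with 1.45 for storage, 0.72 for photosynthesis and -0.36 for root hair genes. This covariate contains the storage and oil body genes themselves. It turned the sign for late anthocyanin, oil body and photosynthesis genes. Of 168 named genes tested, 73 had the opposite sign in at least 1 of the 21 settings. DESeq2 gave no adjusted p for 6 of the 10 storage genes. No paired analysis was possible because the numbers in the titles are allele names, and each allele has 1 library. Depth limits what can be said of TT1, BAN and TT2, which had at most 1 count in each of the 8 libraries.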
